A study of Mus musculus with 8 samples.

Results

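Immunoglobulin light chain V segments were followed in RNA from sorted myeloid cells of sanroque mice, as all genes of the deposited count table whose symbol begins with Igkv (kappa) or Iglv (lambda). These were 163 of the 54188 genes, 160 of them kappa and 3 lambda. The 8 libraries came from homozygous Roquin san/san mice on the C57BL/6 background, described as female and 20 weeks old, with 2 libraries in each of 4 groups. CD11b+Gr-1hi cells from spleen (SP) gave libraries 5 and 6, CD11b+Gr-1lo cells from SP libraries 7 and 8, CD11b+Gr-1hi cells from bone marrow (BM) libraries 9 and 10, and CD11b+Gr-1lo cells from BM libraries 11 and 12. All 4 groups carry the same Roquin allele, and wild-type cells were not analysed here. The comparison asks how SP and BM cells of 1 phenotype, and both phenotypes of 1 tissue, differ. The labels name the Gr-1hi cells G-MDSC and the sort rests on the CD11b and Gr-1 antigens. The paper describes the BM cells as autologous, but the labels do not say which libraries share a mouse. The tests therefore treat all 8 libraries as independent, and p values measure the spread between these libraries.

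An immunoglobulin light chain is made from a V segment that is joined to a J segment in a developing B cell, and the joined piece is spliced to a constant (C) gene. In the mouse the kappa locus holds many V segments and the lambda locus very few, and most mouse antibodies carry a kappa chain. Light chain genes are transcribed strongly in plasma cells, which secrete antibody, and at a lower level in B cells. Their rearrangement belongs to the B lineage, not to the granulocytes and monocytes that the sort was aimed at. In RNA of a sorted population, fewer cells of a type and less RNA per cell cannot be told apart.

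All 160 kappa segments lie on chromosome 6 of GRCm38 between 67555497 and 70704177, a span of 3.15 Mb, and the 3 lambda segments lie on chromosome 16. GENCODE M21 annotates 103 of the 163 as V genes and 60 as V pseudogenes. All 103 V genes and 30 of the 60 pseudogenes had at least 1 count in some library, and 62 segments had counts in all 8. The table does not hold reads, and segments are similar in sequence, so the stretches below show what separated the segments on which the results turn. Each is the last 90 bases of the V coding exon, written in the direction of transcription from the GENCODE M21 transcripts, and capitals mark bases that differ from the first segment of its set. The lambda segments Iglv1 (chr16:19085017-19085106, minus strand) and Iglv2 (chr16:19260401-19260490, minus strand) differ at 3 of these 90 bases, and Iglv3 (chr16:19241207-19241296, minus strand) is shown alone because it does not align to them without gaps.
Iglv1: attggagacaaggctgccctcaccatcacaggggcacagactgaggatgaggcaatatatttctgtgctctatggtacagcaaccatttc
Iglv2: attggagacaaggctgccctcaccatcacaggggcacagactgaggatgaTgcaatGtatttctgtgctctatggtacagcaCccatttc
Iglv3: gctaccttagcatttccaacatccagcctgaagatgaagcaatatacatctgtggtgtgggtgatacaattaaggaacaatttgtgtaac

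Igkv10-96 (chr6:68631963-68632052, minus strand) was the segment with most counts in 6 of the 8 libraries, and its family mates Igkv10-94 (chr6:68704508-68704597, minus strand) and Igkv10-95 (chr6:68680759-68680848, plus strand) differ from it at 12 and 13 bases.
Igkv10-96: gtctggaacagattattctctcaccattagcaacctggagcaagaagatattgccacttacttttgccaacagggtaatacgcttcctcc
Igkv10-94: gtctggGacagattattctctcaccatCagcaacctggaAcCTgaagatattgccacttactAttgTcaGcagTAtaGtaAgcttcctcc
Igkv10-95: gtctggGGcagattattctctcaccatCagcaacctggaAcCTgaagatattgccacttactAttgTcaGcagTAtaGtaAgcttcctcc

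Igkv14-126 (chr6:67896553-67896642, plus strand) stood apart in the BM Gr-1hi libraries, as described further on. Its family mates Igkv14-111 (chr6:68256780-68256869, plus strand) and Igkv14-100 (chr6:68519388-68519477, plus strand) differ from it at 13 and 19 bases.
Igkv14-126: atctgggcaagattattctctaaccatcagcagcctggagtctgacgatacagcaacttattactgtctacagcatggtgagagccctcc
Igkv14-111: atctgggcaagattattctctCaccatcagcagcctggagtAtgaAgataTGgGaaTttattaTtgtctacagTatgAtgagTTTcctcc
Igkv14-100: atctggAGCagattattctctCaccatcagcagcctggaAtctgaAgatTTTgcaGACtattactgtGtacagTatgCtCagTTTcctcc

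Over the last 280 bases, the V genes had a median identity of 94.3% to their nearest other segment, and 18 of the 103 were at least 97% identical to it. Iglv2 was 97.5% identical to Iglv1. No stretch of 101 bases, the read length, was shared with another segment in 118 of the 163 transcripts, among them Igkv14-126 and Iglv3. More than 50% of such stretches were shared in 4 segments, Igkv3-6, Igkv3-11, Igkv6-20 and Igkv6-29, so the counts of these 4 are uncertain. How reads that fit several segments were counted is not given in the sources used here.

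Before the results, the libraries were checked against their labels. Ly6g, which encodes an antigen bound by antibodies to Gr-1, was at 330.0 to 801 CPM (counts scaled to a common library size by edgeR's TMM method) in Gr-1hi libraries and at 3.07 to 8.23 CPM in Gr-1lo libraries. Ccr2, a chemokine receptor of monocytes, was at 6.73 to 38.6 CPM in Gr-1hi libraries and at 1451 to 1826 CPM in Gr-1lo libraries. Both followed the labels. Although the mice are described as female, Xist, the RNA of the inactive X chromosome, reached 12032 and 9898 counts in libraries 5 and 7, and the remaining 6 had 5 or fewer. Ddx3y, a Y-linked gene, had 0 counts in library 5 and 33.7 to 82.6 CPM in the others. The 6 libraries without Xist thus went against the description, library 7 held RNA of both genes, and results are also given without libraries 5 and 7. Depth was 33453580 to 68316154 counts per library.

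Light chain V transcripts were far more abundant in SP than in BM cells of either phenotype. The 163 segments together reached 710 and 620 CPM in SP Gr-1hi libraries 5 and 6 and 438 and 590 CPM in SP Gr-1lo libraries 7 and 8. They reached 37.2 and 36.2 CPM in BM Gr-1hi libraries 9 and 10 and 49.4 and 80.4 CPM in BM Gr-1lo libraries 11 and 12. Every SP library lay above every BM library. The mean was 665 ± 63.3 CPM (SD, n = 2) in SP Gr-1hi and 36.7 ± 0.673 CPM in BM Gr-1hi cells, an 18.1-fold difference. In Gr-1lo cells it was 514 ± 107 CPM in SP and 64.9 ± 21.9 CPM in BM, a 7.92-fold difference. Behind these levels stood 19445 to 50914 V counts in each SP library and 878 to 4256 in each BM library, which were 0.0508% to 0.0745% and 0.00262% to 0.0101% of all counts. The BM Gr-1hi values thus rest on the fewest counts.

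**Figure D1:**
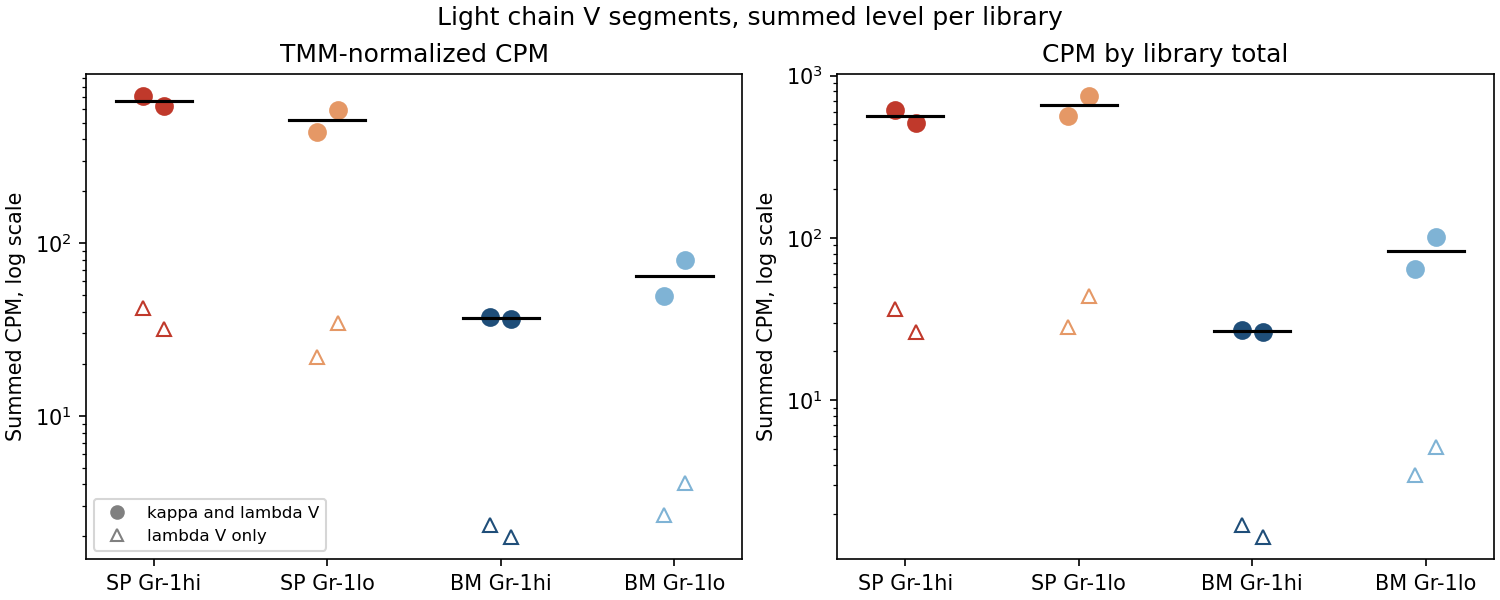
Summed CPM of the light chain V segments in each library by group, on a log axis, for all 163 segments (circles, with a line at the group mean) and for the 3 lambda segments (triangles), scaled by TMM at left and by the library total alone at right. The 4 SP libraries lie above the 4 BM libraries in both panels, whereas the order of the SP groups turns between the panels, from 665 and 514 to 560 and 655 CPM.

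The order of the phenotypes within SP depended on the scaling. TMM factors were 0.724 to 0.863 in Gr-1hi and 1.26 to 1.30 in Gr-1lo libraries. With the library total alone, SP Gr-1hi cells had a mean of 560 CPM and SP Gr-1lo cells one of 655 CPM, the opposite order to TMM. In BM, Gr-1lo libraries were higher under both scalings, at 82.7 against 26.7 CPM by the library total.

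Segment by segment, 95 of the 163 passed edgeR's filterByExpr function, namely 92 kappa and all 3 lambda segments, of which 5 are pseudogenes. The other 68 segments were too low to be tested. The filter looked at all 4 groups, so a segment could pass through its SP counts alone. For such segments a higher level in SP was partly set by the filter, and their calls are no separate support. In the BM Gr-1hi pair, 54 of the 163 segments had 10 or more counts. Each SP group was compared with the BM group of the same phenotype by edgeR's quasi-likelihood test over 17650 genes, and a segment was called when the Benjamini-Hochberg adjusted p did not exceed 0.05 and the fold change (FC) was 2 or more. In Gr-1hi cells, 90 of the 95 segments were higher in SP and none lower. Of all genes tested, 14.0% were called higher in SP. The median log2 FC of the 95 segments was 4.47, or 4.23 with the 9 segments that had no count in a group set to their lower bound, beside 0.03 over all genes tested. The libraries of both groups did not overlap in any of the 95, whereas 35.9% of all genes tested had both SP libraries above both BM libraries. Over all 163 segments, tested or not, 108 had both SP libraries above both BM libraries and 0 the reverse. The segments that were not called were Igkv14-126, Igkv11-125, Igkv4-62, Igkv4-78 and Igkv4-90, which are named because they were few.

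In Gr-1lo cells, 75 of the 95 segments were higher in SP and none lower, beside 3.84% of all genes tested called higher in SP. Their median log2 FC was 3.02, beside -0.01 over all genes. All 95 had a positive log2 FC, from 1.502 to 6.72, and 93 did not overlap, beside 27.1% of genes with both SP libraries above both BM libraries. Over all 163 segments, tested or not, 112 had both SP libraries above both BM libraries and 0 the reverse. The limit of the filter given for Gr-1hi cells holds here too. Over both phenotypes, 92 of the 95 segments, and 101 of all 163, had each of the 4 SP libraries above each of the 4 BM libraries. Among all genes tested, that held for 5.17%. Without libraries 5 and 7, 77 and 66 segments were called in Gr-1hi and Gr-1lo cells.

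The 3 segments with the highest fitted log2 FC in Gr-1hi cells, among called ones of at least 1 CPM, had no count in BM Gr-1hi libraries, and fitted values against 0 counts are no bounds. Igkv4-70 was at 5.64 and 2.93 CPM in libraries 5 and 6 and at 0 counts in libraries 9 and 10. Against 3 counts over the BM group it was at least 6.20 log2 units higher in SP (edgeR's adjusted p = 0.000506). Igkv6-29, whose counts are uncertain as described, was at 1.84 and 1.21 CPM in SP and 0 counts in BM, at least 4.70 log2 units higher (adjusted p = 0.00401 by the same test). Igkv2-112 was at 2.53 and 0.574 CPM in SP and 0 counts in BM, at least 4.75 log2 units higher (adjusted p = 0.0496 by the same test), with most of its counts in library 5. The bounds of Igkv6-29 and Igkv2-112 lie below the log2 FC of Igkv14-100, which had 496 counts in SP and 7 in BM and rose by 5.76 ± 0.61 (± SE, here and below, with an adjusted p = 0.000476 by edgeR), so their place above other segments is not shown. Igkv2-112 was not called without library 5, 6, 9, 10, 11 or 12, with adjusted p values that then passed 0.05.

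In Gr-1lo cells, the same rule named 3 other segments. Igkv4-79 was at 0.908 and 1.23 CPM in SP Gr-1lo and at 0.082 and 0 CPM in BM Gr-1lo libraries, with a log2 FC of 4.67 ± 0.78 and an adjusted p = 0.0104 by edgeR. Igkv4-50 was at 1.31 and 1.75 CPM in SP and at 0.143 and 0 CPM in BM, with a log2 FC of 4.42 ± 0.85 (edgeR's adjusted p = 0.0199). Igkv5-39 was at 6.21 and 13.9 CPM in SP and at 0.307 and 0.642 CPM in BM, with a log2 FC of 4.39 ± 0.47 (edgeR's adjusted p = 0.00161). Their SP and BM values were apart, but both Igkv4 segments had 0 counts in library 12. The calls of Igkv4-79 and Igkv4-50 were lost without library 8 or library 12, and that of Igkv4-50 also without library 7.

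The 3 lambda segments were called in both tissue comparisons. Iglv1, the most used lambda segment, was at 31.9 and 28.2 CPM in SP Gr-1hi, 19.4 and 31.7 in SP Gr-1lo, 1.83 and 1.44 in BM Gr-1hi and 2.56 and 3.76 CPM in BM Gr-1lo libraries. Between tissues its log2 FC was 4.19 ± 0.31 (edgeR's adjusted p = 0.000136) in Gr-1hi and 3.02 ± 0.27 (adjusted p = 0.000656) in Gr-1lo cells. The SP and BM libraries of Iglv1 were far apart, with no overlap. Iglv2 was at 4.76, 1.44, 1.03 and 1.15 CPM in libraries 5 to 8 and at 0.374, 0.413, 0.020 and 0.113 CPM in libraries 9 to 12. Iglv3 was at 5.70, 2.30, 1.46 and 1.70 CPM in libraries 5 to 8 and at 0.112, 0.124, 0.082 and 0.227 CPM in libraries 9 to 12. Both were highest in library 5. The log2 FC of Iglv2 was 2.97 (SE 0.65, adjusted p = 0.0101 by edgeR) in Gr-1hi cells, and without libraries 5 and 7 it was 1.88 and not called. The call of Iglv2 in Gr-1hi cells was also lost without library 9 or 10, and in Gr-1lo cells, where the log2 FC was 3.94 (SE 0.78, adjusted p = 0.0228), without library 7, 8, 11 or 12. For Iglv3 the log2 FC was 5.05 ± 0.66 (adjusted p = 0.00113) in Gr-1hi and 3.32 ± 0.57 (adjusted p = 0.0115) in Gr-1lo cells by the same test, where it was lost without library 8 or 11.

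Other light chain genes moved with the V segments. J and C sequences are parts of the same light chain transcripts, so their calls are no separate support. Of the J and C genes, 14 were listed, and 12 passed the filter. All 12 were called higher in SP in both phenotypes, beside 14.0% of all genes tested in Gr-1hi and 3.84% in Gr-1lo cells. Their median log2 FC was 4.195 in Gr-1hi and 3.003 in Gr-1lo cells. Igkc, the kappa constant gene, was at 969, 828, 558 and 811 CPM in libraries 5 to 8 and at 54.7, 47.9, 73.8 and 105 CPM in libraries 9 to 12. The ratio of kappa V counts to Igkc counts was much the same in all libraries, from 0.634 to 0.746. Iglj4 had no counts.

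Many genes of lymphocytes were also higher in SP than in BM, and their part in the V results was not tested. Between phenotypes in BM, the B cell and T cell lists below summed higher in Gr-1hi libraries. V CPM and the sum of the plasma cell list were lower there. Within the B cell list, Cd79b went the other way, at 2.84 and 2.27 CPM in BM Gr-1hi and 5.84 and 6.37 CPM in BM Gr-1lo libraries. A list of 11 B cell genes, with Ms4a1, Cd79a and Pax5 among them, summed to 347 to 508 CPM in SP Gr-1hi, 65.5 to 82.4 in SP Gr-1lo, 26.5 to 29.5 in BM Gr-1hi and 11.6 to 12.2 CPM in BM Gr-1lo libraries. All 11 were called higher in SP in Gr-1hi cells and 10 of the 11 in Gr-1lo cells. Of all genes tested, 14.0% in Gr-1hi and 3.84% in Gr-1lo cells were called higher in SP, shares to set beside each list here. Cr2, a complement receptor of mature B cells, was at 0 in library 11, and the other 10 were above 0 in every library. A list of 12 plasma cell genes summed to 324 to 446 CPM in SP Gr-1hi, 485 to 513 in SP Gr-1lo, 107 to 110 in BM Gr-1hi and 445 to 456 CPM in BM Gr-1lo libraries. Of the 11 tested, 11 were called higher in SP in Gr-1hi and 6 in Gr-1lo cells. Much of that sum was Xbp1 and Txndc5, which act in protein secretion in many cells. Jchain, which links secreted IgM and IgA, was at 101, 52.2, 29.1 and 41.0 CPM in libraries 5 to 8 and at 8.00, 6.36, 2.95 and 5.65 CPM in libraries 9 to 12. Tnfrsf17, the plasma cell receptor BCMA, was at or near 0 in every library, with at most 0.19 CPM. A list of 10 T cell genes summed to 94.9 to 153 CPM in SP Gr-1hi, 32.3 to 49.3 in SP Gr-1lo, 7.84 to 11.0 in BM Gr-1hi and 2.11 to 2.49 CPM in BM Gr-1lo libraries, with 9 and 10 of the 10 called higher in SP.

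The V level did not keep a fixed ratio to the B cell list. V CPM per CPM of that list was 1.40 and 1.79 in SP Gr-1hi, 1.26 and 1.37 in BM Gr-1hi, 6.69 and 7.16 in SP Gr-1lo and 4.25 and 6.58 in BM Gr-1lo libraries. In each tissue both Gr-1hi libraries lay below both Gr-1lo libraries. Cd79b alone gave 5.84 and 6.37 of the 11.6 and 12.2 CPM of the list in BM Gr-1lo libraries 11 and 12. It gave 9.29 and 11.9 of 65.5 and 82.4 CPM in SP Gr-1lo libraries 7 and 8. The ratios in BM Gr-1lo cells thus lean on 1 gene, and their order against SP Gr-1lo cells is not shown. Rag1, a subunit of the recombinase, did not follow the V segments across tissues. It was at 1.30, 0.51, 0.13 and 0.32 CPM in libraries 5 to 8 and at 1.72, 1.57, 0.39 and 0.51 CPM in libraries 9 to 12. Between tissues it was not called (log2 FC -0.86 in Gr-1hi and -0.90 in Gr-1lo cells). Of the 7 genes listed for recombination and the surrogate light chain, 4 were tested, and Vpreb3, a protein of B cell precursors, was the one called, higher in SP Gr-1hi cells by a log2 FC of 2.00 (SE 0.54, edgeR's adjusted p = 0.0215).

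Between phenotypes, few segments passed the stricter threshold used there, which asks for an FC above 8 and an adjusted p under 0.01. In SP, 0 of the 95 segments were called by edgeR and 0 by DESeq2, beside 7.37% of all genes tested called in either direction. By edgeR, 11 of the 95 had an unadjusted p of at most 0.05. That share lay below the 22.3% of all genes called higher at the weaker threshold given next. The median log2 FC of SP Gr-1hi over SP Gr-1lo was 0.38, beside -0.09 over all genes tested, with 81 segments above 0 and 14 below. At the weaker threshold of the tissue comparisons, 4 segments were higher in SP Gr-1hi cells, Igkv2-137, Igkv8-16, Iglv2 and Iglv3, named because they were few. Of all genes tested, 22.3% were called higher at that threshold, so this share of segments was below the background.

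In BM, 2 of the 95 segments were called, both lower in Gr-1hi cells, beside 10.1% of all genes tested called lower. They were Igkv12-38 and Igkv3-1, which are below 1 CPM and are named because they were few. Igkv12-38 had 0, 1, 13 and 18 counts in libraries 9 to 12, and its log2 ratio of Gr-1lo over Gr-1hi was 3.96 (exact 95% counting interval 1.37 to 9.31, edgeR's adjusted p = 0.00306). Igkv3-1 had 1, 2, 22 and 30 counts, with a log2 ratio of 3.12 (1.49 to 5.44, adjusted p = 0.00177 by edgeR). Both calls rest on few counts in Gr-1hi libraries. DESeq2 called 0, as did edgeR without library 12, and edgeR called 1 without library 5 or 6. At the weaker threshold, 24 segments were called, 3 higher and 21 lower in Gr-1hi cells, beside 57.3% of all genes. The 3 higher ones were Igkv14-126, Igkv4-61 and Iglv2. The median log2 FC over the 95 segments was -0.88, beside -0.17 over all genes tested, and it was -0.73 with RLE and -0.84 with upper-quartile scaling, beside -0.03 and -0.14 over all genes.

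Tissue and phenotype were then tested together, as the difference between SP and BM in Gr-1hi cells minus that in Gr-1lo cells. With the threshold of the tissue comparisons, 14 of the 95 segments were called, beside 9.74% of all genes tested. For 13 of them the difference between SP and BM was larger in Gr-1hi cells, and for Igkv14-126 it was smaller. Of the 9 segments of the Igkv6 family, 5 were among the 13 (Igkv6-15, Igkv6-17, Igkv6-23, Igkv6-25 and Igkv6-32). Their interactions, 1.22 to 1.81, lay around the median of all segments, so a trait of the family is not shown. The median interaction over the 95 segments was 1.28 on the log2 scale, beside 0.03 over all genes tested, with 84 segments above 0 and 11 below. The interaction of Igkc was 1.19 (SE 0.30, adjusted p = 0.0351 by edgeR). Igkv12-38 had the largest positive value among the called ones, 3.45 (SE 0.96, adjusted p = 0.0443 by edgeR), with 45, 117, 1 and 31 counts in SP Gr-1hi, SP Gr-1lo, BM Gr-1hi and BM Gr-1lo cells. Igkv3-1 followed with 3.39 (SE 0.70, adjusted p = 0.0165 by edgeR) on 156, 265, 3 and 52 counts, and Igkv14-100 with 2.95 (SE 0.84, adjusted p = 0.0481) on 496, 545, 7 and 57 counts. All 3 were very low in BM Gr-1hi cells. The count of 14 fell to between 2 and 7 without library 5, 7, 8, 9, 10 or 12 (7, 4, 6, 2, 5 and 2) and to 3 without libraries 5 and 7 together.

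**Figure D2:**
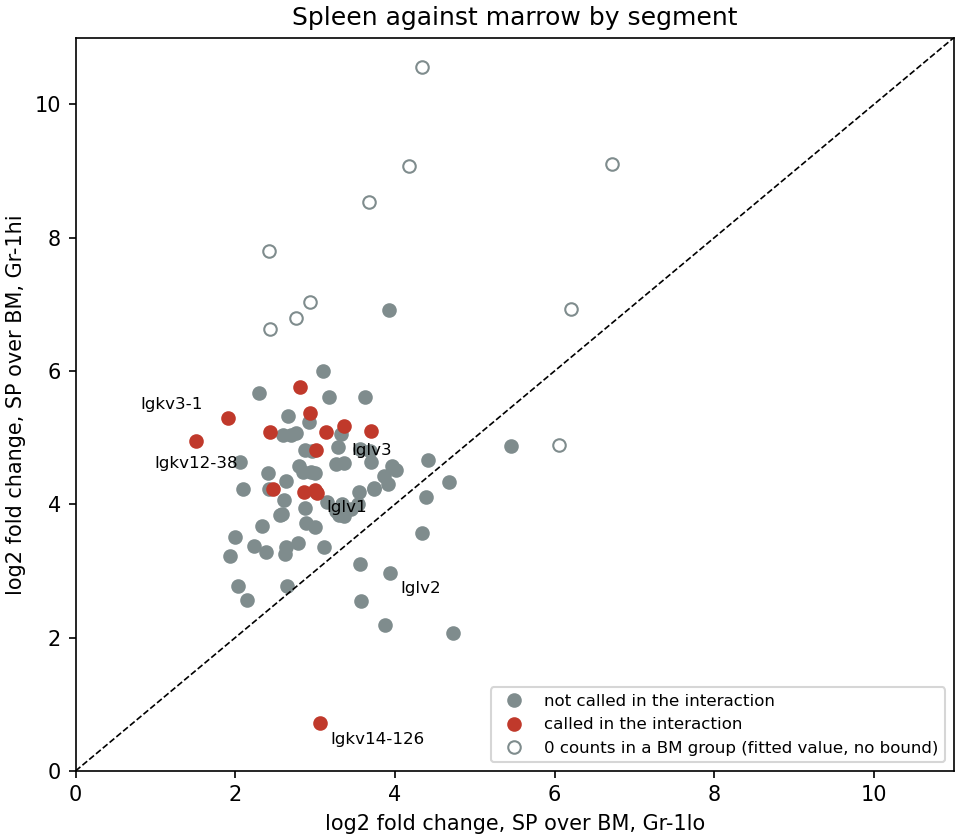
Fitted log2 FC of SP over BM for the 95 tested segments, in Gr-1lo cells (x axis) and Gr-1hi cells (y axis), with equal values on the dashed line and the segments called in the interaction in red. Open circles are segments with 0 counts in a BM group, whose fitted values are no bounds. Igkv14-126 lies far below the line, at 3.06 and 0.72, while most others lie above it.

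Igkv14-126 was the only segment called with a negative interaction, although 11 of the 95 values were negative. Igkv4-78 had a lower value, -2.65 (SE 1.77), which was not called. Igkv14-126 had 75 and 86 counts in libraries 5 and 6, 76 and 324 in libraries 7 and 8, 36 and 41 in libraries 9 and 10 and 14 and 19 in libraries 11 and 12. As CPM these were 2.26, 2.74, 1.604 and 3.75 in SP and 1.35, 1.69, 0.287 and 0.359 in BM. Both BM Gr-1hi libraries lay above both BM Gr-1lo libraries, against the trend of most segments. That order was also seen for Igkv4-61 and Iglv2, whose interactions of -1.03 and -0.97 were not called. The log2 FC of Igkv14-126 was 0.72 (SE 0.41, adjusted p = 0.211 by edgeR) for SP over BM in Gr-1hi cells and 3.06 (SE 0.45, adjusted p = 0.00560) in Gr-1lo cells. For BM Gr-1hi over BM Gr-1lo it was 2.22 (SE 0.48, adjusted p = 0.00262). The interaction was -2.34 (SE 0.61, adjusted p = 0.0363), called in 7 of 13 alternatives. It was lost without library 5, 8, 9, 10, 11 or 12, with values from -2.58 to -1.58. Within the V counts of a library, Igkv14-126 took 0.318%, 0.442%, 0.366% and 0.636% in SP, 3.62% and 4.67% in BM Gr-1hi and 0.580% and 0.446% in BM Gr-1lo libraries. It was thus among the 5 segments with most counts in both BM Gr-1hi libraries and in no other library.

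The same segments otherwise led most libraries. Igkv10-96 held 3.21%, 6.68%, 5.69% and 6.51% of the V counts in libraries 5 to 8 and 5.73%, 6.38%, 9.16% and 7.54% in libraries 9 to 12. It led every library but library 5, which Iglv1 led with 4.49%, and library 10, which Igkv1-110 led with 6.72%. Iglv1 held a steady 3.99% to 5.38%. Igkv10-96 and Iglv1 were the 2 segments among the 10 with most counts in all 8 libraries, and 22 segments were among the 10 in at least 1. Levels divided by exon length, which has a median of 362 bases over V genes, gave Igkv10-96 3.33% to 9.45% and Iglv1 3.80% to 5.09%.

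Of the others among the 5 with most counts in a library, Igkv3-4 had a median share of 3.54% (1.41% to 3.99%), Igkv1-117 of 3.10% (2.32% to 5.69%) and Igkv1-110 of 3.02% (2.09% to 6.72%). Igkv1-110 and Igkv1-117 are 96.8% identical over the last 280 bases and were both highest in library 10. Igkv3-2 held 2.44% to 3.90% in the 6 libraries outside BM Gr-1hi and 1.005% and 1.25% in libraries 9 and 10. Igkv6-17, Igkv6-25, Igkv6-15, Igkv4-59, Igkv19-93 and Igkv12-44 had medians of 2.21% to 2.65%. Igkv4-59 differed between replicates, at 4.42% in library 9 and 0.911% in library 10. Igkv12-44 was highest in library 5, at 3.96%. Igkv15-103, chosen after its values were seen, held 0.688% to 1.70% in SP libraries and 2.28% to 3.65% in BM libraries, with no overlap.

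**Figure D3:**
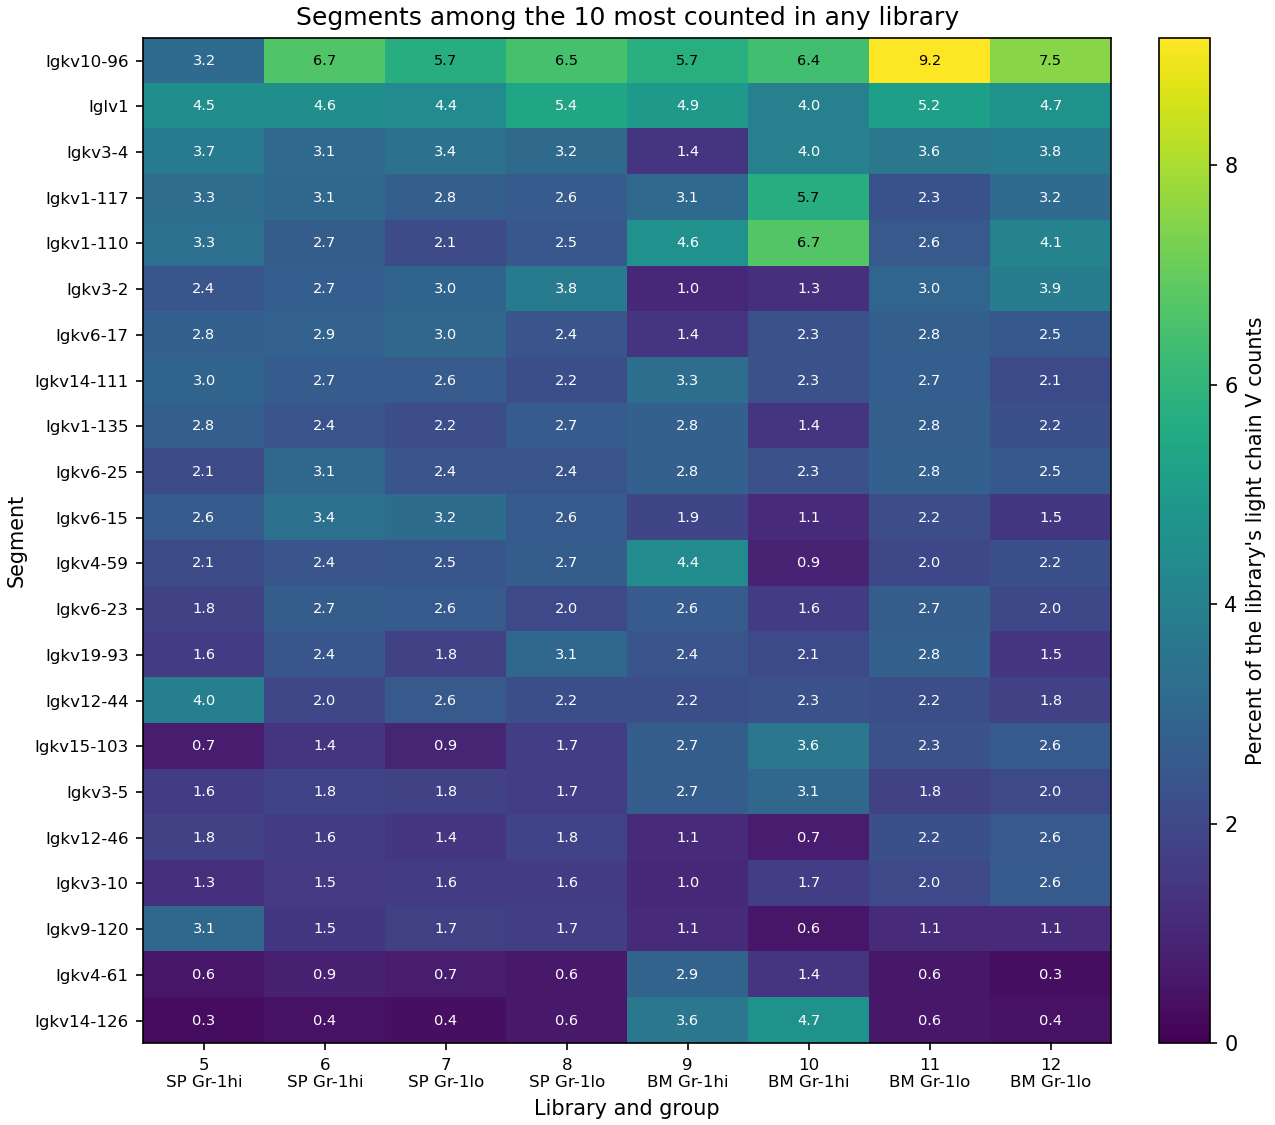
Share of the light chain V counts of each library (columns, by number and group) held by the 22 segments (rows, ordered by median share) that were among the 10 with most counts in any library; cell text and colour give the percent. Igkv10-96 and Iglv1 lead most columns, and Igkv14-126 in the bottom row reaches 3.6% and 4.7% in BM Gr-1hi libraries and at most 0.6% elsewhere.

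Grouped into families by the number before the dash, usage was broad. Igkv4, the largest family with 33 members, held 12.5% to 15.4% of the V counts. Igkv3 held 8.54% to 15.1%, Igkv6 8.88% to 15.1%, Igkv1 8.02% to 15.0% and Igkv10, with 3 members, 4.62% to 11.2%. Igkv6 was at 12.5% to 15.1% in SP and 8.88% to 12.9% in BM libraries, which overlapped. Igkv14 was at 7.44% and 7.29% in BM Gr-1hi and 3.59% to 4.85% in the other libraries, and Igkv14-126 held 3.62% and 4.67% in the former. Pseudogenes together held 0.201% to 0.650% of the V counts.

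Along the kappa locus, counts came from all parts. Cut into 4 equal parts, the part of the span nearest the J segments held 28.5% to 37.2% of the kappa V counts, with 33 of the 100 kappa V genes. The following parts held 19.4% to 26.3%, 16.2% to 24.2% and 17.7% to 28.2%, with 25, 22 and 20 V genes. The farthest part, where Igkv14-126 lies, was highest in libraries 9 and 10, at 26.9% and 28.2%. Segments on the minus strand, 62 of the 100 V genes, held 49.5% to 56.6%. Among the kappa J segments, Igkj1 took 27.9% to 32.3% of the J counts, Igkj2 24.5% to 32.6%, Igkj5 18.6% to 26.5%, Igkj4 15.1% to 20.5% and Igkj3 0.142% to 2.41%.

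V counts were spread over many segments and somewhat more concentrated in BM. The 10 segments with most counts held 33.6%, 34.9%, 33.3% and 35.0% of the V counts in libraries 5 to 8 and 38.3%, 42.7%, 37.6% and 37.5% in libraries 9 to 12. The effective number of segments, the exponential of the Shannon entropy of the shares, was 61.3, 58.9, 61.4 and 58.6 in SP and 52.4, 49.0, 53.9 and 53.8 in BM libraries. Every SP library thus had more effective segments than every BM library. Since SP libraries held more V counts, each was also thinned to 878 counts, the smallest total. The effective number was then 57.6, 55.4, 57.7 and 55.0 in SP and 52.1, 49.0, 51.8 and 51.5 in BM libraries, with no overlap still. Thinned top 10 shares were 34.7% to 36.7% in SP and 38.5% to 42.7% in BM libraries. No test was made of these summary values. In each library 14 to 18 segments made up 50% of the V counts and 47 to 53 made up 90%.

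**Figure D4:**
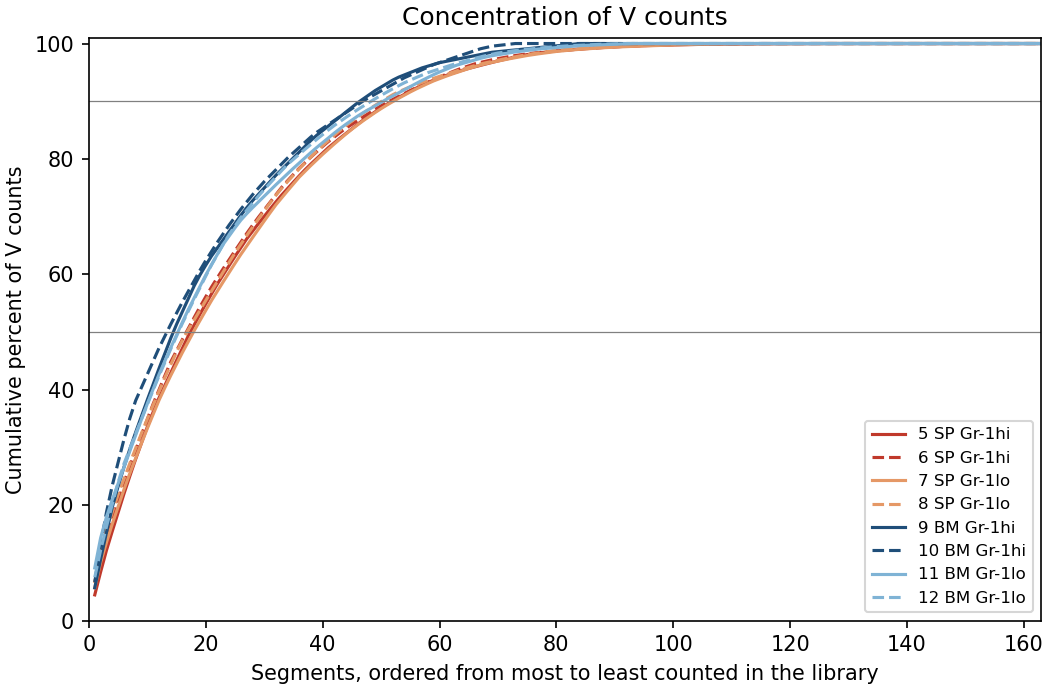
Cumulative percent of the V counts of each library (y axis) over segments ordered from most to least counted (x axis), coloured by group, with grey lines at 50% and 90%. The 4 BM curves rise above the 4 SP curves, and 50% is reached with 14 to 16 segments in BM and 17 or 18 in SP libraries.

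Libraries resembled each other in usage. The overlap of usage, the summed smaller share of each segment in a pair of libraries, was 83.5% to 92.4% for the 6 pairs of SP libraries, 71.9% to 86.1% for the 6 pairs of BM libraries and 69.0% to 86.6% for the 16 pairs across tissues. Thinned to 878 counts, these were 76.6% to 82.4%, 70.6% to 81.1% and 67.2% to 80.5%, so the ranges overlapped. The V counts of replicates varied beyond counting error. Per degree of freedom, their chi-square was 17.4 for libraries 5 and 6, 11.6 for libraries 7 and 8, 2.25 for libraries 9 and 10 and 2.58 for the BM Gr-1lo pair. Over all genes, with the totals of the whole library in place of the V totals, it was 66.7, 20.96, 21.3 and 18.9. The measure grows with the counts of a row. It therefore does not show whether segments varied less than other genes, or BM replicates less than SP ones. Among SP libraries, segments with at least 50 counts in one library and a share at least 2 times that of each other library were sought after the data were seen. Library 5 had 4, Iglv2, Igkv2-112, Iglv3 and Igkv1-99, and library 8 had 2, Igkv4-62 and Igkv11-125. Libraries 6 and 7 had 0.

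The balance of kappa to lambda at the V segments did not separate the groups. Lambda segments held 5.97% and 5.15% of the V counts in SP Gr-1hi, 5.00% and 5.86% in SP Gr-1lo, 6.23% and 5.47% in BM Gr-1hi and 5.39% and 5.10% in BM Gr-1lo libraries. These correspond to 15.0 to 19.0 kappa counts for each lambda count. The Wilson 95% intervals, which cover counting error only, were 5.67% to 6.28% in library 5 and 4.89% to 7.91% in library 9, the latter on 62 lambda counts. The groups overlapped, and the replicates of SP differed by as much as the groups.

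At the constant genes the balance did separate the phenotypes. Iglc1 to Iglc4 held 7.07% and 5.39% of the kappa and lambda C counts in SP Gr-1hi and 6.28% and 6.45% in BM Gr-1hi libraries. They held 3.67% and 3.95% in SP Gr-1lo and 3.04% and 3.31% in BM Gr-1lo libraries. Each of the 4 Gr-1hi libraries lay above each of the 4 Gr-1lo libraries. Lambda V counts per lambda C count were 0.574 to 0.678 in Gr-1hi and 1.03 to 1.15 in Gr-1lo libraries, again without overlap.

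**Figure D5:**
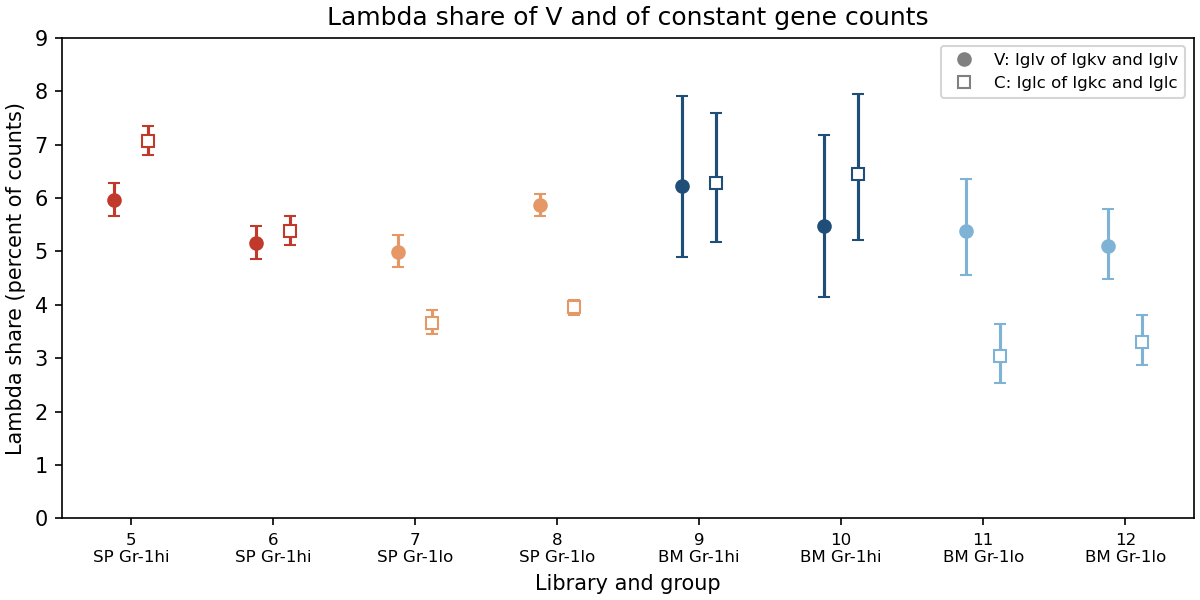
Lambda share of the V counts (filled circles) and of the constant gene counts (open squares) in each library, in percent, with Wilson 95% intervals for counting error. The circles lie between 5.00% and 6.23% in all groups, while the squares lie at 5.39% or above in Gr-1hi and at 3.95% or below in Gr-1lo libraries.

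The difference lay in Iglc2 and Iglc3 more than in Iglc1. Iglc1 was at 27.5 and 19.2 CPM in SP Gr-1hi and 13.6 and 23.6 CPM in SP Gr-1lo libraries, which overlapped. Iglc2 was at 26.7 and 14.5 CPM in SP Gr-1hi and 3.82 and 4.81 CPM in SP Gr-1lo libraries, with a log2 FC of 2.25 ± 0.32 (edgeR's adjusted p = 0.000258). Iglc3 was at 19.4 and 13.5 CPM in SP Gr-1hi and 3.76 and 4.91 CPM in SP Gr-1lo libraries, with a log2 FC of 1.91 ± 0.23 (edgeR's adjusted p = 8.76e-05). Neither reached the FC of 8 used for calls between phenotypes. Both passed an FC of at least 2 at an adjusted p of at most 0.05, as did the lambda joining segments Iglj2 (log2 FC 2.06, SE 0.35) and Iglj3 (1.84, SE 0.29) and the kappa joining segment Igkj3, which made 5 of the 12 J and C genes tested, beside 22.3% of all genes. Igkj3 had the highest log2 FC of the 5, at 2.46 ± 0.49 (edgeR's adjusted p = 0.00176). Among them Igkj3 was the only kappa gene, and neither Igkc nor another kappa joining segment passed. Its share of the kappa J counts was 0.465% to 2.41% in Gr-1hi and 0.142% to 0.383% in Gr-1lo libraries, with no overlap, but rests on 7, 1, 1 and 2 counts in libraries 9 to 12. Iglj2 lies inside the annotated span of Iglc2, and Iglc2 and Iglc3 are similar in sequence, so the division of reads among these genes is uncertain. In BM, Iglc3 was at 0.75 and 1.03 CPM in Gr-1hi and 0.29 and 0.25 CPM in Gr-1lo libraries, with a log2 FC of 1.73 ± 0.38 (edgeR's adjusted p = 0.00306), and that of Iglc2 was 1.27 ± 0.54 (adjusted p = 0.0572). Iglc1 made up 37.2% to 60.2% of the lambda C counts in Gr-1hi and 64.2% to 81.1% in Gr-1lo libraries.

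Iglv2 followed these genes in part. Of the lambda V counts, it held 11.2%, 4.49%, 4.72% and 3.32% in libraries 5 to 8, 16.1% and 20.8% in BM Gr-1hi and 0.769% and 2.76% in BM Gr-1lo libraries. The BM groups were apart, on 10, 10, 1 and 6 counts, and the SP groups overlapped. Its log2 FC in BM was 2.47 for Gr-1hi over Gr-1lo (SE 0.94, adjusted p = 0.0397 by edgeR), under the FC of 8 needed for a call between phenotypes. The sum of the B cell list moved in the same direction between phenotypes, at 347 to 508 against 65.5 to 82.4 CPM in SP and 26.5 to 29.5 against 11.6 to 12.2 CPM in BM. Cd79b of that list went the other way in BM. The part of the list in the lambda results was not tested.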

How the data were processed

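RNA-seq libraries of sorted cells were analysed, with groups taken from the deposited labels. Per the study's methods, the authors filtered the reads, aligned them to GRCm38 with STAR and counted them per gene with featureCounts, and the deposited counts are not normalized. The tools and the build (mm10, GRCm38) are also named in the submitters' processing notes. The libraries were stranded and read as 101 base pairs. Counting of reads that fit several genes is not given in the sources used here, and similar segments may share counts.

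Tests used edgeR 4.0.16 (R 4.3.3). After filterByExpr and TMM scaling, genes were fitted in 1 quasi-likelihood model of all 8 libraries with a term for each group (4 residual degrees of freedom, robust dispersion). P values were adjusted over 17650 genes by the Benjamini-Hochberg method. SE is the size of the log2 FC divided by the square root of F. A count of 0 allows 3 counts, or 0.0348 to 0.124 CPM. Coordinates came from GENCODE M21. The procedure was tested on simulated data. Alternatives were RLE and upper-quartile scaling, no filter, DESeq2 1.42.0, the 4 libraries compared, each library left out, thinning, other segment sets and scaling by library total. Those by exon length and without libraries 5 and 7 were added after seeing the data.

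Segments named were the 5 with most counts in each library, all Iglv segments, the 3 called with the largest fitted increase and decrease in each comparison at 1 CPM or more without overlap, and the 3 largest interactions in each direction. One gene of the B cell list is not reported here and was left out of its sums. The members and lists were chosen with earlier results of these data known.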

Additional observations from a re-analysis of the deposited data

Results flagged for a closer look

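For 14 segments the difference between SP and BM differed between Gr-1hi and Gr-1lo cells by the interaction test of edgeR, with the adjusted p no higher than 0.05 and a 2-fold or larger difference. These were 14 of 95 tested segments, beside 9.74% of all genes tested. The count was 2 without library 9 or library 12, 3 without libraries 5 and 7 together, and between 2 and 17 over all libraries left out in turn. The interaction on the log2 scale was 3.45 for Igkv12-38, 3.39 for Igkv3-1, 2.95 for Igkv14-100, 2.65 for Igkv12-46 and 2.44 for Igkv3-2. It was 1.95 for Igkv4-55, 1.76 for Igkv5-43 and 1.15 for Igkv14-111. In the Igkv6 family it was 1.81 for Igkv6-32, 1.81 for Igkv6-17, 1.40 for Igkv6-15, 1.328 for Igkv6-25 and 1.22 for Igkv6-23. Igkv14-126 had the opposite sign, with -2.34. Igkv5-43 and Igkv6-17 were called in 11 of 13 alternatives and Igkv3-1 in 10, whereas Igkv14-100 was called in 4 of 13.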

How the results depend on the processing

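All 95 tested segments kept a positive log2 FC of SP over BM under RLE and upper-quartile scaling in both phenotypes. No paired analysis was possible because the groups share no replicate number.

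Without each library in turn, 75 to 91 segments were called in Gr-1hi and 52 to 76 in Gr-1lo cells between tissues, 0 between phenotypes in SP, 0 to 3 in BM and 2 to 17 in the interaction. The weaker threshold gave 4 segments between phenotypes in SP and 24 in BM. In BM, RLE scaling gave 1, DESeq2 0 and the 4 libraries alone 1. The interaction gave 34 without a filter, 24 by DESeq2 and 3 without libraries 5 and 7.

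By library total, V CPM was 560 in SP Gr-1hi, 655 in SP Gr-1lo and 26.7 in BM Gr-1hi cells. With segments of at least 10 counts only, BM Gr-1hi cells had 29.3 CPM, a lambda share of 6.93%, a top 10 share of 51.1% and an effective number of 29.4, and BM Gr-1lo cells had 38.7% and 48.1 for the last 2. Without the top segment, the lambda share was 3.53% in SP Gr-1hi and 5.72% in BM Gr-1lo cells, the top 10 share 33.2% in SP Gr-1hi, 32.5% in SP Gr-1lo and 34.6% in BM Gr-1lo cells, and the effective number 56.6 in BM Gr-1lo cells. Thinning gave top 10 shares of 35.6%, 35.7% and 38.8% and effective numbers of 56.5, 56.4 and 51.7 in SP Gr-1hi, SP Gr-1lo and BM Gr-1lo cells. In BM Gr-1lo cells, pseudogenes left out gave 37.7% and 52.9, and counts per exon length 4.98% lambda, 37.2% and 54.2.

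The log2 FC of Iglv1 between phenotypes in SP ranged from -0.10 (without library 7) to 0.61 without each library and was -0.19 without libraries 5 and 7, and that of Iglv3 in BM ranged from -0.96 to 0.48 (without library 12), none of them called. The cause was not tested. Over the named segments and their alternatives, 289 results stayed on the same side of the threshold in the same direction, 47 lost and 3 gained a call.

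BM Gr-1hi libraries, with 878 and 995 V counts, set the precision of shares there.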
